A study of Mus musculus with 9 samples.

Results

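The 35 genes described here are the hypoxia response and glycolysis genes of HC11 cells, a clonal epithelial line from mouse mammary gland that makes milk proteins when given lactogenic hormones. They were chosen by gene symbol from the 24421 genes of the deposited count table, and all 35 have a row there. The members are 4 HIF transcription factor subunits, 13 HIF target genes outside glycolysis, 4 HIF-induced regulators of glycolysis and 14 glycolytic enzymes below hexokinase. The rule names symbols and uses no threshold on a measured value, but the list was drawn up with earlier results of these data known. Polyadenylated RNA was sequenced in 9 libraries, with 3 libraries in each of 3 groups. All cells were at passage 30 and reached confluency after 3 days in a growth medium that held 10 ng/mL epidermal growth factor. The group R day1, the resting cells, then spent 1 day in medium with 2% serum and 5 µg/mL insulin. The groups D day1 and D day6 had the resting day as well, and then received prolactin (5 µg/mL) with hydrocortisone (1 µM) in that medium for 1 or 6 days, with fresh medium every 2 days. Both differentiating groups therefore differ from R day1 in hormones and in time after confluency, which cannot be told apart here because no resting group of later days was analysed.

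Hypoxia-inducible factors are dimers of an oxygen-regulated alpha subunit (Hif1a, Epas1 or Hif3a) and the stable partner Arnt. When oxygen is plentiful, prolyl hydroxylases of the Egln family mark the alpha subunit for destruction by the Vhl ubiquitin ligase, so that HIF activity is set largely at the protein level, which RNA counts do not measure. HIF dimers bind the short core ACGTG or GCGTG of hypoxia response elements and raise transcription of genes for glucose use, blood vessel growth, pH control and removal of mitochondria. Many glycolytic enzymes are HIF targets too, but they are also expressed at high levels without hypoxia. The lactating mammary gland uses glucose both for energy and for lactose and lipid synthesis.

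To show what the HIF core looks like in front of members of both kinds, 6 promoters are printed, namely those of Car9, Ankrd37 and Bnip3 from the HIF targets and of Pgk1, Pgam1 and Ldha from the glycolytic enzymes. All 6 hold ACGTG, which was found in 7 of 11 HIF targets and 4 of 14 enzymes. They are therefore examples of a match and do not represent their lists. Each is the 250 bases before the RefSeq start site in mouse build GRCm38.p6, read 5′ to 3′ on the gene's strand, and capitals mark every ACGTG or GCGTG on either strand (CACGT and CACGC where the match is on the other strand). Car9 lies on the plus strand of chromosome 4 and its window is chr4:43506776-43507025. The Ankrd37 window is chr8:45999851-46000100 on the minus strand, and the Bnip3 window is chr7:138909507-138909756 on the minus strand. The windows of Pgk1 (chrX:106186850-106187099), Pgam1 (chr19:41911621-41911870) and Ldha (chr7:46845554-46845803) are on the plus strand.
Car9: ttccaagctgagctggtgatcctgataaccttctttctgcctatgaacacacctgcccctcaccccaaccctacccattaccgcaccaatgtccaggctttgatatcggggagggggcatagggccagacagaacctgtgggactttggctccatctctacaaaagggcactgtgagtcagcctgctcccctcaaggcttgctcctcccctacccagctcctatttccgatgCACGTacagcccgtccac
Ankrd37: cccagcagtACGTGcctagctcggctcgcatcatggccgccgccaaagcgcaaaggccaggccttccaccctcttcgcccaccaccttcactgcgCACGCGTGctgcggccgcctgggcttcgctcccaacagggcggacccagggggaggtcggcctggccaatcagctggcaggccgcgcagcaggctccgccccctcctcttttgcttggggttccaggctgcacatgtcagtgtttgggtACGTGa
Bnip3: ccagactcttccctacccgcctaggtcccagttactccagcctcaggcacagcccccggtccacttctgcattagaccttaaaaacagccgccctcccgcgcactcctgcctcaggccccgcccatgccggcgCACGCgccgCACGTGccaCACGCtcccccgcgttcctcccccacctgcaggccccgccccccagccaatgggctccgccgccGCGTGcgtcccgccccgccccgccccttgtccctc
Pgk1: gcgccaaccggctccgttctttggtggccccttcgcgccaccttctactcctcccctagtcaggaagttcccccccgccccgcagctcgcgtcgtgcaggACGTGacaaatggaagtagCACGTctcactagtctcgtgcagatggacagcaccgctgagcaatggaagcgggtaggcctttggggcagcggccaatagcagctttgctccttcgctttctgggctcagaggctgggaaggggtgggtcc
Pgam1: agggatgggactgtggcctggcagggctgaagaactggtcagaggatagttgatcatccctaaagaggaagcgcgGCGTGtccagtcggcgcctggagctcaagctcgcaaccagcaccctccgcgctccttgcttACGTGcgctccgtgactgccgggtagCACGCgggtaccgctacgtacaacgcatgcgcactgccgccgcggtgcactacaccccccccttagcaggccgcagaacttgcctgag
Ldha: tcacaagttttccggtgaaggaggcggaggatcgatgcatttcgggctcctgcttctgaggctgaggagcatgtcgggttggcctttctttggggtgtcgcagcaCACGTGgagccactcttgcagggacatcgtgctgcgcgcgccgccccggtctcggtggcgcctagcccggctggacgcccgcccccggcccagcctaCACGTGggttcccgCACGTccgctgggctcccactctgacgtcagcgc

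The Car9 promoter held a single match, on the minus strand 18 to 14 bases before the start site. Ldha held 5 matches to ACGTG and none to GCGTG, and because ACGTG and its reverse complement overlap in CACGTG, such palindromes count on both strands. Promoters of 32 of the 35 members were matched by symbol in the RefSeq table. ACGTG was found in 7 of 11 HIF targets and in 4 of 14 glycolytic enzymes, against 16.6% of 32817 windows of the same length. Either core was found in 9 of 11 HIF targets and 9 of 14 enzymes, against 38.6% of those windows. Vegfa, Car12, Gpi1, Aldoa, Tpi1, Eno2 and Pkm held neither core in this window. A match is a string of letters and no measurement of binding.

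The libraries held between 59621562 counts (D day1 replicate 2) and 73571270 counts (D day1 replicate 1), so that 3 counts, the smallest number taken as detected, correspond to 0.0392 to 0.0529 CPM, the count relative to the library size as scaled by the TMM method. D day1 replicate 2 stood apart from the other libraries of its group. The chi-square statistic per degree of freedom over genes was 593 and 573 when it was compared with D day1 replicates 1 and 3, and 30.7 between those 2. Its difference from them followed exon length: the median over genes with at most 1000 exonic bases was 0.84 higher (log2) and that over genes with more than 6000 bases was 0.90 lower. D day1 results are therefore given with this library and then without it. The labels do not say whether replicates came from separate cultures, and the p-values below therefore rest on library-to-library spread that may be purely technical. Of 8 mammary epithelial markers, 7 were measured at 2953 or more counts per library, while Krt19 had at most 11 counts. The 8 together summed to 6828 to 7298 CPM in R day1, to 6088 and 6519 CPM in D day1 replicates 1 and 3 and 10528 CPM in D day1 replicate 2, and to 3339 to 3508 CPM in D day6, and 3 of the 7 tested rose and 2 fell in D day6. Of 10 markers of other cell types, Ptprc, Cd3e, Cdh5, Adipoq, Plin1, Rgs5 and Hbb-b1 had at most 7 counts in any library, and Hbb-b1 was at 0 in all 9. Cd68, Pecam1 and Pdgfrb were measurable, and the 10 together summed to 51.9 to 60.3 CPM in R day1, 35.5 to 43.6 CPM in D day1 and 9.42 to 11.8 CPM in D day6. The 10 proliferation genes followed (Mki67, Top2a and the like) fell in both differentiating groups, from a sum of 934 to 1347 CPM in R day1 to 127 to 256 CPM in D day1 and 96.2 to 165 CPM in D day6. The part of these marker lists in the results below was not tested. In bulk RNA, fewer cells of one kind and less RNA per cell cannot be told apart.

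Across the members, levels moved down from resting to differentiating cells, and no member rose by the test in D day1 or D day6 with all 9 libraries. A gene is called changed where edgeR's quasi-likelihood F test gave a Benjamini-Hochberg adjusted p under 0.05 over all 13866 genes tested. In D day1, 21 of the 34 members tested fell and 0 rose, where 15.2% of all genes tested fell and 15.4% rose. When D day1 replicate 2 was left out, 28 of 34 fell and 1 rose, where 26.2% of all genes fell and 26.6% rose. In D day6, 26 of 34 fell and 0 rose, where 26.2% of all genes fell and 24.3% rose. In the fit without D day1 replicate 2, which belongs to neither group of that comparison but shares its estimate of spread, 29 of 34 fell and 0 rose in D day6, where 37.7% of all genes fell and 38% rose. From D day1 to D day6, 7 of 34 fell and 4 rose, against 19.5% and 17.1% of all genes. Hif3a was the 1 member with too few counts for a test. Slc16a3 is counted among the falls in D day1 and D day6, but had 3 to 7 counts in each D library. It passed the filter on low counts through R day1 alone, so it could only be found lower and its call says nothing on direction. The D day1 and D day6 comparisons share the R day1 libraries, so their values are given side by side and not as independent repeats.

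The plain comparison of HIF targets with glycolysis depended on 1 library. In D day1, 12 of 13 HIF targets fell and 5 of 14 glycolytic enzymes fell, with median log2 changes of -0.93 and -0.47 beside 0.00 for all genes tested. Without D day1 replicate 2, the counts were 12 of 13 and 12 of 14 and the medians -0.96 and -0.74. Calls became more frequent in general in that fit. Of all genes tested, 15.2% fell in D day1 with all 9 libraries and 26.2% without this library. In D day6, 12 of 13 HIF targets and 12 of 14 enzymes fell, with medians of -0.97 and -0.87, where 26.2% of all genes fell. Leaving out any other library of the D day1 comparison moved the count of enzymes to between 2 and 5, while that of HIF targets stayed at 11 or 12. The difference between the lists themselves was not tested. As a share of all counts, the glycolytic enzymes together with Eno1b took 2.50% ± 0.248 (SD, n = 3) in R day1, 1.68% ± 0.358 in D day1 and 1.27% ± 0.0479 in D day6. The HIF targets took 0.358% ± 0.0545, 0.160% ± 0.0110 and 0.158% ± 0.0105 of counts in the same groups. The D day1 and D day6 ranges of the summed HIF targets overlapped, while the summed enzymes took 1.46% and 1.48% in D day1 replicates 1 and 3 and 2.09% in replicate 2.

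Of the HIF factors, Epas1 fell in D day1, and Hif1a and Arnt passed neither comparison with R day1 when all 9 libraries were used. Hif1a, the main oxygen-regulated alpha subunit, was at 213, 202 and 207 CPM in R day1, 239.6, 111 and 252 CPM in D day1 and 224, 204 and 204 CPM in D day6. D day1 replicate 2 lay far below every other library, and the D day6 libraries lay within or just above the R day1 range. Its log2 change was -0.05 (SE 0.26, adjusted p = 0.907) in D day1 and 0.02 (SE 0.26, adjusted p = 0.951) in D day6. When D day1 replicate 2 was left out, Hif1a was higher in D day1, by 0.25 (adjusted p = 0.00365), the only member called higher than R day1 in an alternative that was run. Arnt, the shared partner, changed by -0.25 (SE 0.15, adjusted p = 0.259) and -0.20 (SE 0.15, adjusted p = 0.305), neither of which passed the test. In the fit without D day1 replicate 2, the Arnt changes were -0.06 (adjusted p = 0.269) in D day1 and -0.20 (adjusted p = 0.00114) in D day6. Epas1, which encodes the alpha subunit HIF-2α, was at 14.8, 15.0 and 14.1 CPM in R day1, 9.79, 4.97 and 9.22 CPM in D day1 and 12.9, 12.6 and 13.2 CPM in D day6. All 3 D day1 libraries lay below all others, and the D day6 libraries lay below the R day1 libraries by a small margin. Epas1 fell in D day1 by 0.87 (SE 0.22, adjusted p = 0.0161) on the log2 scale, and by 0.62 without D day1 replicate 2. It no longer passed without R day1 replicate 1 (adjusted p = 0.0515) or R day1 replicate 2 (adjusted p = 0.0526). In D day6 its change was -0.18 (SE 0.21, adjusted p = 0.518), and -0.18 (adjusted p = 0.0211) without D day1 replicate 2. Hif3a had between 0 and 5 counts per library and was not tested. Per kilobase of exon, Hif1a was at 43.6 ± 1.22 CPM in R day1 and Epas1 at 2.74 ± 0.0835 CPM, so that Hif1a carried 94.1% ± 0.255 of the alpha subunit level in R day1, 96.5% ± 0.342 in D day1 and 94.8% ± 0.291 in D day6.

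The HIF targets outside glycolysis fell in both differentiating groups, 12 of 13 in each, and the exceptions were Adm in D day1 and Egln3 in D day6. Among the pH regulators, Car9, the membrane carbonic anhydrase widely used as a hypoxia marker, had the largest fall of the HIF targets in D day6. It lies at chr4:43507026-43513725 on the plus strand (mm10). Car9 was at 84.4, 62.3 and 89.0 CPM in R day1, 24.9, 27.5 and 25.0 CPM in D day1 and 7.24, 9.16 and 8.97 CPM in D day6. The groups form 3 separate steps, and D day1 replicate 2 sits with its group. The log2 change was -1.61 (SE 0.15, adjusted p = 0.000175) in D day1 and -3.22 (SE 0.16, adjusted p = 1.13e-06) in D day6, and the further fall between those groups was -1.61 (SE 0.15, adjusted p = 8.73e-05). Car12, its close relative, was at 361, 336 and 366 CPM in R day1, 119, 72.3 and 125 CPM in D day1 and 183, 184 and 191 CPM in D day6. Here the lowest libraries were those of D day1 and the D day6 libraries came back part of the way. Car12 fell by 1.75 (SE 0.19, adjusted p = 0.000297) on the log2 scale in D day1 and by 0.93 (SE 0.18, adjusted p = 0.00241) in D day6, and rose by 0.82 (SE 0.18, adjusted p = 0.00803) between them. With D day1 replicate 2 left out, the D day1 changes were -1.65 (adjusted p = 7.1e-06) for Car9 and -1.54 (adjusted p = 3.38e-08) for Car12. Per kilobase, Car9 made up 29.4% ± 2.96 (SD, n = 3) of the summed Car9 and Car12 level in R day1, 32.7% ± 8.06 in D day1 and 7.94% ± 0.86 in D day6, and D day1 replicate 2, at 41.9%, lay above replicates 1 and 3, at 28.5% and 27.6%.

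The oxygen-sensing hydroxylases among the targets fell as well. Egln1, the main prolyl hydroxylase acting on Hif1a and itself HIF-induced, was at 301, 247 and 333 CPM in R day1, 164, 174 and 162 CPM in D day1 and 144, 152 and 151 CPM in D day6. No D library reached the lowest R day1 library, and the 6 D libraries spanned a narrow range. Egln1 changed by -0.82 (SE 0.11, adjusted p = 0.000998) in D day1 and -0.98 (SE 0.11, adjusted p = 0.000115) in D day6. Egln3, a second HIF-induced hydroxylase, was at 16.1, 10.9 and 14.9 CPM in R day1, 4.98, 5.81 and 4.66 CPM in D day1 and 4.88, 10.3 and 10.5 CPM in D day6. In D day6, replicates 2 and 3 lay just under the lowest R day1 library and replicate 1 lay with the D day1 libraries. Its change was -1.44 (SE 0.28, adjusted p = 0.0057) in D day1 and -0.71 (SE 0.28, adjusted p = 0.0624) in D day6, where it did not pass the test with edgeR and had an adjusted p of 0.0355 with DESeq2. The D day1 changes without replicate 2 were -0.85 (adjusted p = 6.23e-05) for Egln1 and -1.53 (adjusted p = 0.00123) for Egln3, and Egln3 passed in D day6 (-0.70, adjusted p = 0.0215). Egln2, the family member that is not hypoxia-induced, changed by 0.50 (adjusted p = 0.118) and 0.32 (adjusted p = 0.262), and its share of the family per kilobase was 20.1% ± 2.18 in R day1, 37.8% ± 7.54 in D day1 and 37.7% ± 2.04 in D day6. Without D day1 replicate 2, Egln2 rose, by 0.14 (adjusted p = 0.0286) in D day1 and 0.32 (adjusted p = 3.46e-05) in D day6, and the D day1 share of replicates 1 and 3 was 33.5% and 33.5%.

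Of the vascular factors, Vegfa, the growth factor for blood vessels, was at 285, 234 and 304 CPM in R day1, 139, 98.6 and 143 CPM in D day1 and 153, 182 and 179 CPM in D day6. Its D libraries were all below the R day1 libraries, with D day1 lowest. Vegfa fell by 1.11 (SE 0.16, adjusted p = 0.0014) on the log2 scale in D day1 and by 0.68 (SE 0.16, adjusted p = 0.00748) in D day6. Adm, which encodes the vasodilator peptide adrenomedullin, was at 6.96, 4.56 and 7.06 CPM in R day1, 3.95, 6.52 and 4.67 CPM in D day1 and 1.17, 1.88 and 1.66 CPM in D day6. D day1 overlapped R day1, chiefly through replicate 2, while every D day6 library was lower than every other library. Adm changed by -0.30 (SE 0.25, adjusted p = 0.394) in D day1 and -1.98 (SE 0.27, adjusted p = 0.000295) in D day6, and the fall from D day1 to D day6 was -1.68 (SE 0.27, adjusted p = 0.0015). With D day1 replicate 2 left out, the D day1 changes were -0.95 (adjusted p = 4.18e-05) for Vegfa and -0.52 (adjusted p = 0.0565) for Adm, which did not pass.

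Bnip3 and Bnip3l encode mitophagy receptors, which tag mitochondria for removal. Bnip3 was at 369.9, 267 and 415 CPM in R day1, 174, 197 and 179 CPM in D day1 and 151, 198 and 188 CPM in D day6. The R day1 libraries varied more than the others, yet none overlapped a D library. Bnip3 changed by -0.93 (SE 0.17, adjusted p = 0.00375) and -0.97 (SE 0.17, adjusted p = 0.00132), and Bnip3l by -0.75 (SE 0.11, adjusted p = 0.00121) and -0.97 (SE 0.11, adjusted p = 8.98e-05), in D day1 and D day6. The D day1 changes without replicate 2 were -0.99 (adjusted p = 0.000548) and -0.70 (adjusted p = 9.86e-05). With all 9 libraries, neither passed the test between D day1 and D day6.

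The remaining targets have varied roles. Ndrg1, a stress-responsive gene, was at 1140.3, 866 and 1303 CPM in R day1, 351, 406 and 369 CPM in D day1 and 378, 436 and 440.4 CPM in D day6. It had the highest level per kilobase of the 13 in R day1, at 382 ± 76.4 CPM per kilobase, and its groups did not overlap between R day1 and either D group. Its log2 change was -1.55 (SE 0.15, adjusted p = 0.000221) in D day1 and -1.40 (SE 0.15, adjusted p = 8.79e-05) in D day6. Ankrd37, a small ankyrin repeat gene often used in hypoxia signatures, was at 13.2, 9.61 and 16.3 CPM in R day1, 4.43, 7.61 and 4.54 CPM in D day1 and 2.66, 2.98 and 2.75 CPM in D day6. Replicate 2 of D day1 lay well above its group, and the groups did not overlap. Ankrd37 fell by 1.24 (SE 0.25, adjusted p = 0.00615) in D day1 and by 2.22 (SE 0.26, adjusted p = 0.000126) in D day6 (log2), and 49 of its 904 exonic bases overlap Ufsp2 on the opposite strand. P4ha1 and P4ha2, the catalytic subunits of collagen prolyl hydroxylase, fell by 0.50 and 0.83 in D day1 and by 0.74 and 1.10 in D day6 (largest adjusted p = 0.0108, edgeR). With D day1 replicate 2 left out, the D day1 changes were -1.61 (adjusted p = 9.83e-06) for Ndrg1, -1.54 (adjusted p = 7.11e-05) for Ankrd37, -0.51 (adjusted p = 0.000415) for P4ha1 and -0.96 (adjusted p = 0.000841) for P4ha2. Kdm3a, a histone H3K9 demethylase, had the smallest called falls of the HIF targets, at -0.49 (adjusted p = 0.046) and -0.46 (adjusted p = 0.0381). Those of Kdm3a were lost when any 1 of the 3 R day1 libraries was left out in either comparison, with adjusted p between 0.0565 and 0.150, and for D day6 also without any 1 D day6 library (adjusted p between 0.0716 and 0.121). When D day1 replicate 2 was left out, its D day1 change was -0.32 (adjusted p = 0.00359).

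**Figure D1:**
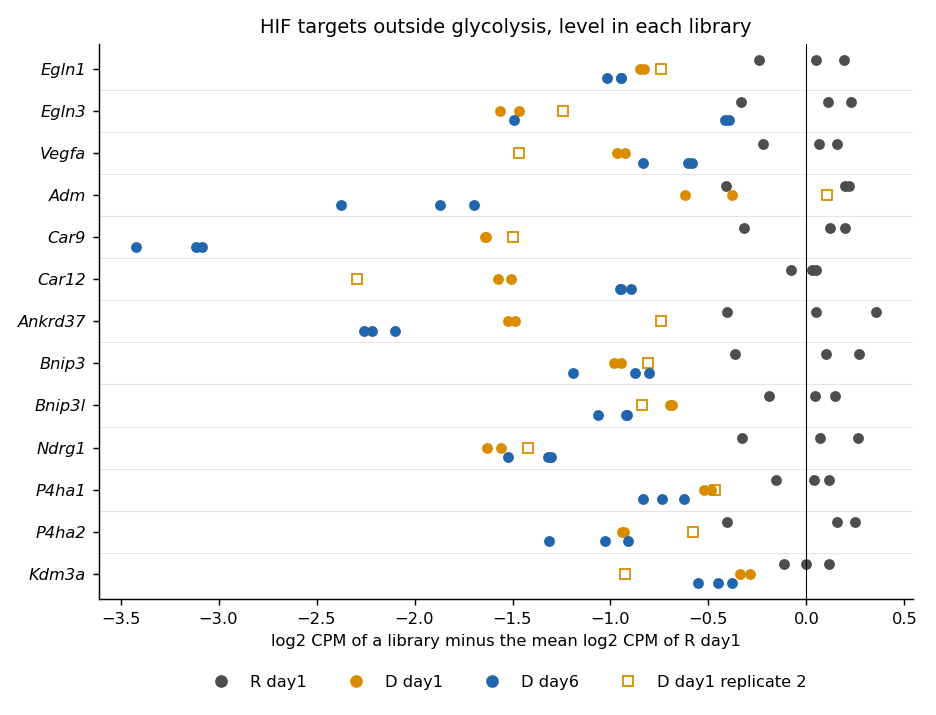
Level of each of the 13 HIF targets outside glycolysis in every library, as log2 CPM minus the mean log2 CPM of the 3 R day1 libraries (horizontal axis); each point is 1 library and the open square is D day1 replicate 2. Car9, Adm, Ankrd37, Egln1, Bnip3l and P4ha1 are lowest in D day6, Car12 and Vegfa are lowest in D day1, and only Adm overlaps between R day1 and D day1. Between D day1 and D day6, only Car9, Adm, Ankrd37 and Car12 were called with all 9 libraries.

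The HIF-induced regulators of glycolysis did not move as one. Pdk1, a kinase that shuts pyruvate dehydrogenase, was at 141, 115 and 152 CPM in R day1, 72.6, 50.1 and 74.9 CPM in D day1 and 47.8, 51.6 and 48.1 CPM in D day6. Every D library lay below every R day1 library. Pdk1 fell by 1.04 (SE 0.16, adjusted p = 0.00183) on the log2 scale in D day1 and by 1.47 (SE 0.16, adjusted p = 9.85e-05) in D day6. Pfkfb3, which makes the activator of phosphofructokinase, was at 66.3, 53.6 and 71.2 CPM in R day1, 37.4, 26.8 and 35.7 CPM in D day1 and 52.2, 67.5 and 59.9 CPM in D day6. The D day1 libraries were lowest and the D day6 libraries overlapped the R day1 range. Pfkfb3 changed by -0.94 (SE 0.16, adjusted p = 0.00312) in D day1, -0.09 (SE 0.16, adjusted p = 0.68) in D day6 and 0.85 (SE 0.16, adjusted p = 0.00402) between them. Pfkfb4, a second enzyme of that kind, was at 3.78 to 5.92 CPM in all libraries, passed neither comparison with R day1 and rose from D day1 to D day6 by 0.42 (SE 0.12, adjusted p = 0.0295), a call lost without D day1 replicate 3 (adjusted p = 0.0783) or any 1 D day6 library (adjusted p between 0.0549 and 0.107). Slc16a3, the lactate exporter MCT4, was a rare transcript, with 44, 49 and 30 counts in R day1, 5, 4 and 7 in D day1 and 3, 5 and 7 in D day6. It passed the filter on low counts through R day1 alone, so its fall in both comparisons (-2.89 and -2.90 on the log2 scale, edgeR adjusted p = 0.000582 and 0.000171) is a description of few reads. The D day1 changes without replicate 2 were -0.88 (adjusted p = 3.45e-05) for Pdk1, -0.80 (adjusted p = 0.00034) for Pfkfb3, -0.23 (adjusted p = 0.133) for Pfkfb4 and -2.83 (adjusted p = 0.000261) for Slc16a3.

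In D day1, the glycolytic enzymes Eno2, Pfkp, Aldoc, Pkm and Gapdh fell, and the other 9 did not pass the test. D day1 replicate 2 lay above both other libraries of its group for all of these 14 except Eno1. Gapdh, which oxidises glyceraldehyde-3-phosphate, had the highest level per kilobase among the members in R day1, at 3069 ± 305 CPM per kilobase (SD, n = 3). Gapdh was at 4760.1, 4076 and 4939 CPM in R day1, 2282, 3884 and 2367 CPM in D day1 and 1973, 2205 and 2027 CPM in D day6. D day1 replicates 1 and 3 lay close to the D day6 libraries and replicate 2 just below the lowest R day1 library. Gapdh fell by 0.69 (SE 0.21, adjusted p = 0.0333) on the log2 scale in D day1 and by 1.15 (SE 0.21, adjusted p = 0.0016) in D day6, and without D day1 replicate 2 the D day1 change was -0.98 (adjusted p = 1.05e-05). Pkm, pyruvate kinase, was at 7746, 6821 and 7792 CPM in R day1, 4067, 6147 and 4449 CPM in D day1 and 3562, 3793 and 3905 CPM in D day6. Its groups did not overlap between R day1 and either D group. Pkm changed by -0.61 (SE 0.17, adjusted p = 0.024) and -0.99 (SE 0.17, adjusted p = 0.00113) in D day1 and D day6, and by -0.81 (adjusted p = 2.17e-05) in D day1 without replicate 2. Pfkp, the platelet-type phosphofructokinase, changed by -0.63 (adjusted p = 0.00282) in D day1 and by -0.65 (adjusted p = 0.000216) without replicate 2.

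Ldha, which turns pyruvate into lactate, was at 2262, 1881 and 2363 CPM in R day1, 1281, 2136 and 1273 CPM in D day1 and 1369, 1476 and 1467 CPM in D day6. D day1 replicate 2 sat inside the R day1 range while replicates 1 and 3 sat below the D day6 libraries. Ldha changed by -0.47 (SE 0.20, adjusted p = 0.113) in D day1, which did not pass, and by -0.76 (adjusted p = 6.21e-05) without replicate 2. Aldoa, the main aldolase, was at 2224, 1881 and 2259.8 CPM in R day1, 1214, 2174 and 1246 CPM in D day1 and 1221, 1451 and 1318 CPM in D day6, with replicate 2 of D day1 again inside the R day1 range. Its D day1 change was -0.46 (SE 0.22, adjusted p = 0.149), and -0.79 (adjusted p = 6.27e-05) without replicate 2. Gpi1 and Tpi1, the isomerases of the upper pathway, gave -0.47 and -0.47 with all libraries (adjusted p = 0.0805 and 0.145) and -0.72 and -0.80 without replicate 2 (adjusted p = 8.26e-05 and 8.57e-05).

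The called falls of D day1 enzymes were sensitive to single libraries in the other direction too. Without R day1 replicate 1, R day1 replicate 3, D day1 replicate 1 or D day1 replicate 3, 2 of 14 enzymes passed the test, and Aldoc, Gapdh and Pkm did not, with adjusted p between 0.0607 and 0.107. Without R day1 replicate 2, Gapdh did not pass (adjusted p = 0.0543). D day1 replicate 2 held the highest of the 3 D day1 values for 13 of 14 enzymes, with a median of 0.57 (log2) above the other 2 libraries, and for 9 of 13 HIF targets, with a median of 0.14. Over all genes tested it was the highest in 44.7%. Exon length is shorter among the enzymes, with a median of 2265 bases against 2890 for the HIF targets and 2862 for all genes tested. Across the 13866 genes, which are not independent replicates, Spearman's rho between exon length and the deviation of this library was -0.69. The part of length in the difference between the lists was not tested.

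**Figure D2:**
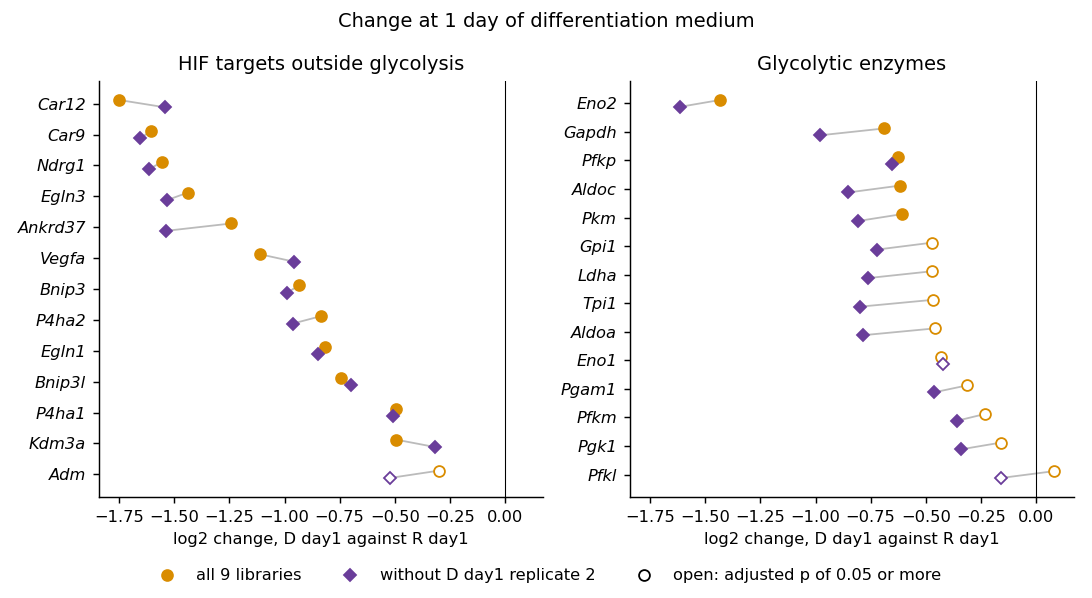
Log2 change of each HIF target (left) and each glycolytic enzyme (right) in D day1 against R day1, with all 9 libraries (orange circles) and without D day1 replicate 2 (purple diamonds); open symbols have an adjusted p of 0.05 or more. Filled circles are 12 of 13 on the left and 5 of 14 on the right, and filled diamonds are 12 of 13 and 12 of 14. Of all genes tested, 15.2% fell with all 9 libraries and 26.2% without D day1 replicate 2.

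**Figure D3:**
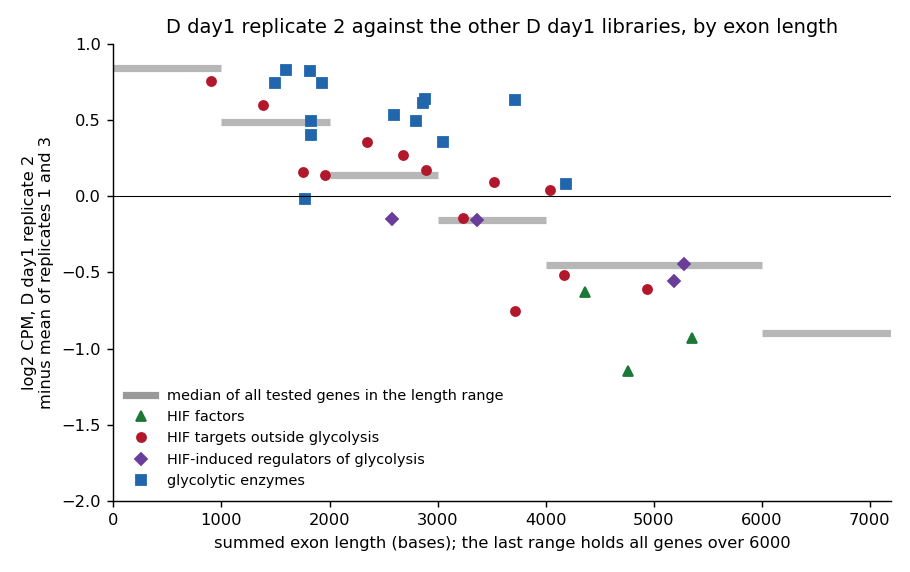
Log2 CPM of D day1 replicate 2 minus the mean of D day1 replicates 1 and 3 (vertical axis) against summed exon length in bases (horizontal axis), one point per tested member, with grey bars for the median of all tested genes in each length range. The bars step from 0.84 at up to 1000 bases to -0.90 above 6000 bases, 13 of 14 enzymes lie above 0 and the 3 HIF factors lie below it.

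In D day6, 12 of 14 glycolytic enzymes fell, where 26.2% of all genes fell. The falls reached from Gpi1, before the phosphofructokinase step, to Ldha, but Pfkl and Pgam1 between them did not pass. The deepest falls were in the isozymes typical of nervous tissue. Eno2, neuronal enolase, was at 38.7, 28.1 and 46.6 CPM in R day1, 11.2, 17.3 and 13.5 CPM in D day1 and 6.07, 6.87 and 6.51 CPM in D day6. The groups made 3 separate steps. Eno2 changed by -1.43 (SE 0.21, adjusted p = 0.00132) in D day1 and -2.54 (SE 0.22, adjusted p = 2.1e-05) in D day6. Aldoc, the brain-type aldolase, was at 228, 188 and 231 CPM in R day1, 118, 183 and 121 CPM in D day1 and 70.4, 72.7 and 67.6 CPM in D day6. Its D day6 libraries lay close together and far below the rest. Aldoc changed by -0.62 (SE 0.17, adjusted p = 0.0244) in D day1 and -1.62 (SE 0.17, adjusted p = 7.53e-05) in D day6. With D day1 replicate 2 left out, the D day1 changes were -1.61 (adjusted p = 4.04e-05) for Eno2 and -0.85 (adjusted p = 1.4e-05) for Aldoc.

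Pgk1, phosphoglycerate kinase on the X chromosome, was at 2631, 2134 and 2568 CPM in R day1, 1930.2, 2715 and 1922 CPM in D day1 and 1279, 1329.7 and 1341 CPM in D day6. D day1 replicates 1 and 3 lay below all R day1 libraries and D day1 replicate 2 above all of them, and the D day6 libraries were the lowest. Pgk1 changed by -0.16 (SE 0.16, adjusted p = 0.467) in D day1 and -0.89 (SE 0.16, adjusted p = 0.00141) in D day6. In the fit without D day1 replicate 2, Pgk1 passed in D day1 as well, at -0.34 (adjusted p = 0.00617). Pfkm, the muscle-type phosphofructokinase, changed by -0.23 (adjusted p = 0.163) in D day1 with all libraries and by -0.36 (adjusted p = 0.00103) without replicate 2. Gpi1, Tpi1 and Pfkm fell by 0.88, 0.86 and 0.64 in D day6, with adjusted p of 0.00356, 0.0113 and 0.0018. Smaller falls were those of Aldoa (-0.67, adjusted p = 0.0312), Ldha (-0.59, adjusted p = 0.0373) and Pfkp (-0.36, adjusted p = 0.0192). The calls of Aldoa and Ldha were lost without R day1 replicate 1, R day1 replicate 3 or any 1 D day6 library (adjusted p between 0.0582 and 0.112). That of Pfkp was lost without R day1 replicate 1, R day1 replicate 3, D day6 replicate 1 or D day6 replicate 2 (adjusted p between 0.0576 and 0.0798), and 552 of its 4186 exonic bases overlap Pitrm1 on the opposite strand. With a replicate block, Ldha and Kdm3a did not pass in D day6 (adjusted p = 0.0605 and 0.0505), nor did Gapdh and Kdm3a in D day1 (0.0508 and 0.0573).

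The enzymes that did not pass in D day6 were Pfkl and Pgam1. Pfkl, the liver-type phosphofructokinase, was at 373, 295 and 389 CPM in R day1, 307, 488 and 323 CPM in D day1 and 340.0, 365 and 351 CPM in D day6. Apart from D day1 replicate 2, every library lay between 295 and 389 CPM. Its change was 0.08 (SE 0.18, adjusted p = 0.757) in D day1, -0.16 (adjusted p = 0.198) in D day1 without replicate 2 and -0.00 (SE 0.18, adjusted p = 0.998) in D day6. Pgam1, phosphoglycerate mutase, was at 1271, 1035 and 1357 CPM in R day1, 899.8, 1173 and 872 CPM in D day1 and 1157, 1254 and 1198 CPM in D day6. D day6 lay inside the R day1 range. Its change was -0.31 (SE 0.15, adjusted p = 0.138) in D day1 and -0.02 (SE 0.15, adjusted p = 0.919) in D day6. Without D day1 replicate 2, Pgam1 fell in D day1, by 0.46 (adjusted p = 0.0027) on the log2 scale.

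The counts of Eno1, the ubiquitous enolase, cannot be separated from those of Eno1b, since 92.8% of its exon length is also annotated to Eno1b on the same strand and Eno1 holds 0.630 to 0.997% of the summed counts. Eno1 alone changed by -0.43 (SE 0.21, adjusted p = 0.155) in D day1, by -0.42 (adjusted p = 0.125) in D day1 without replicate 2, and -0.95 (SE 0.21, adjusted p = 0.00551) in D day6. With both rows summed, an alternative added after seeing the data, the level was 861, 679.6 and 904 CPM in R day1, 509, 712 and 487 CPM in D day1, and 428, 436 and 433 CPM in D day6. The summed enolase fell in D day1 by 0.52 (SE 0.16, edgeR adjusted p = 0.0422) and in D day6 by 0.91 (SE 0.17, adjusted p = 0.00161), on the log2 scale. When D day1 replicate 2 was left out, the D day1 fall was 0.71 (adjusted p = 0.000201). The counts of enzymes called use the row of Eno1 alone, so the summed enolase is not among the 5 of 14 that fell in D day1. For the sum, D day1 replicate 2 lay above both other D day1 libraries, as for the other enzymes. Many glycolytic enzymes have processed pseudogenes in the mouse genome, and the treatment of reads with several map positions is not stated.

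**Figure D4:**
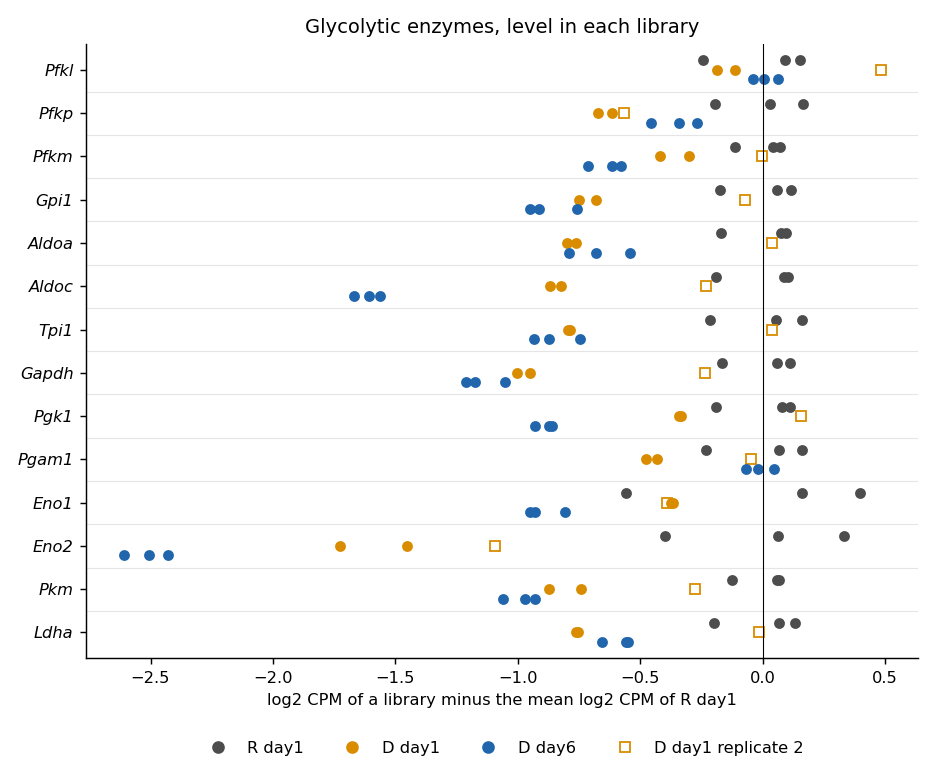
Level of each of the 14 glycolytic enzymes in every library, as log2 CPM minus the mean log2 CPM of the 3 R day1 libraries (horizontal axis); each point is 1 library and the open square is D day1 replicate 2. In D day1 the open square lies to the right of both other D day1 points for 13 of 14 enzymes, and in D day6 all points of Eno2 and Aldoc lie far to the left while those of Pfkl and Pgam1 lie near 0.

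Between D day1 and D day6, most members did not differ by the test. Adm (-1.68), Car9 (-1.61) and Ankrd37 (-0.98) were lower in D day6 among the HIF targets. Among the enzymes, Eno2 (-1.11, adjusted p = 0.00375), Aldoc (-1.0, adjusted p = 0.00221), Pgk1 (-0.73, adjusted p = 0.00692) and Pfkm (-0.40, adjusted p = 0.0262) were lower. Of these, Adm, Pgk1 and Pfkm had not passed in D day1 against R day1 with all 9 libraries. Pgk1 and Pfkm did pass there without D day1 replicate 2. Car12, Epas1, Pfkfb3 and Pfkfb4 rose, the last of these by 0.42. In the fit without D day1 replicate 2, 12 of 34 members fell and 8 rose, where 28.4% of all genes fell and 29.9% rose. Pgam1, 0.45 (adjusted p = 0.00291), and Pfkp, 0.29 (adjusted p = 0.0198), were then among those that rose, and Pdk1, -0.58 (adjusted p = 0.000389), among those that fell. Some calls rested on single libraries. Epas1 and Pfkm did not pass without any 1 D day6 library (adjusted p between 0.0832 and 0.0962, and between 0.0607 and 0.0978), nor did Ankrd37 without D day6 replicate 1 (0.0579) or D day6 replicate 3 (0.0566). With a replicate block, Pfkm and Pfkfb4 did not pass (adjusted p = 0.0636 and 0.0635).

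Shares of several isozymes differed between R day1 and the D groups without overlap. On the scale of CPM per kilobase, Pfkl made up 49.3% ± 1.25 (SD, n = 3) of the phosphofructokinase level in R day1, 58.0% ± 4.05 in D day1 and 57.4% ± 1.31 in D day6. Aldoc made up 6.07% ± 0.0693 of Aldoa plus Aldoc in R day1, 5.57% ± 0.428 in D day1 and 3.26% ± 0.243 in D day6. Ldhb, the heart-type lactate dehydrogenase, made up 3.26% ± 0.454, 5.60% ± 0.314 and 6.25% ± 0.521 of Ldha plus Ldhb. Pdk1 made up 36.1% ± 2.70 of the 4 pyruvate dehydrogenase kinases in R day1, 23.6% ± 5.42 in D day1 and 20.4% ± 0.512 in D day6. D day1 replicates 1 and 3 were at 55.8% and 55.6% for Pfkl, 5.80% and 5.82% for Aldoc, 5.94% and 5.32% for Ldhb and 26.9% and 26.5% for Pdk1, and replicate 2 was at 62.7%, 5.07%, 5.54% and 17.3%. For each of these shares, the R day1 libraries did not overlap the D day1 or the D day6 libraries. The exact permutation test gave p = 0.1 (two-sided), the smallest that 3 against 3 libraries allow, and the Benjamini-Hochberg adjusted value over 33 comparisons in 11 families was 0.183. The shares of Bnip3 within Bnip3 plus Bnip3l (60.9% ± 2.58, 58.1% ± 2.96 and 61.1% ± 2.09) and of P4ha1 within the P4ha subunits overlapped between groups. The enolase family was left out because of the overlap of Eno1 and Eno1b.

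Replicates within a group also varied across the members together. R day1 replicate 2 held the lowest R day1 value for 13 of 13 HIF targets and 14 of 14 glycolytic enzymes, where it was the lowest in 38.7% of all genes tested. The medians of its deviation from the other 2 libraries were -0.48 and -0.29 (log2). R day1 replicate 3 held the highest value for 12 of 13 and 12 of 14, where it was the highest in 32.8% of all genes tested. In D day6, replicate 1 was the lowest for 13 of 13 HIF targets and 11 of 14 enzymes, against 34.9% of all genes. It was at the same time the highest for 10 of 10 proliferation genes, against 35.4% of all genes. In R day1, replicate 3 was the highest for 10 of 10 proliferation genes as well.

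The genes around glycolysis had calls in both directions, and their counts stand beside 15.4% of all genes tested that rose and 15.2% that fell in D day1, and 24.3% and 26.2% in D day6 (26.6% and 26.2% in D day1 without replicate 2). Of 20 genes for pyruvate and lactate handling, 2 rose and 4 fell in D day1, and 10 rose and 3 fell in D day6 (medians 0.05 and 0.31). Without D day1 replicate 2, 5 rose and 7 fell in D day1. The subunits Pdha1, Pdhb, Dlat, Dld and Pdhx of the pyruvate dehydrogenase complex were among those that rose in D day6 and are named after their values were seen. The largest increases there were those of Pcx, pyruvate carboxylase (1.47, SE 0.12, adjusted p = 1.32e-05), the mitochondrial pyruvate carrier subunits Mpc2 (0.97, adjusted p = 0.00505) and Mpc1 (0.94, adjusted p = 0.000171), and Pdk4 (0.94, adjusted p = 0.00838). The falls were those of the lactate transporters Slc16a1 (-0.98, adjusted p = 0.000788) and Slc16a7 (-0.98, adjusted p = 0.00586) and of Pdk3 (-0.84, adjusted p = 7.22e-05). Of 8 pentose phosphate genes, 1 rose in D day1 (2 rose and 3 fell without replicate 2), and 4 rose and 1 fell in D day6, with Taldo1, transaldolase, at 1.53 (adjusted p = 0.000226), Tkt, transketolase, at 0.81 (adjusted p = 0.00171) and G6pdx, the entry enzyme, at -0.53 (adjusted p = 0.000344). Of 18 other glycolytic isozymes and regulators, 10 were tested. In D day1, 2 rose and 2 fell (2 and 3 without replicate 2), and 3 rose and 5 fell in D day6. Tigar, which lowers fructose-2,6-bisphosphate, rose by 0.85 (adjusted p = 0.000253), and Fbp2 and Fbp1, which run the phosphofructokinase step backwards, changed by -3.01 (adjusted p = 3.12e-05) and -1.33 (adjusted p = 0.000359).

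**Figure D5:**
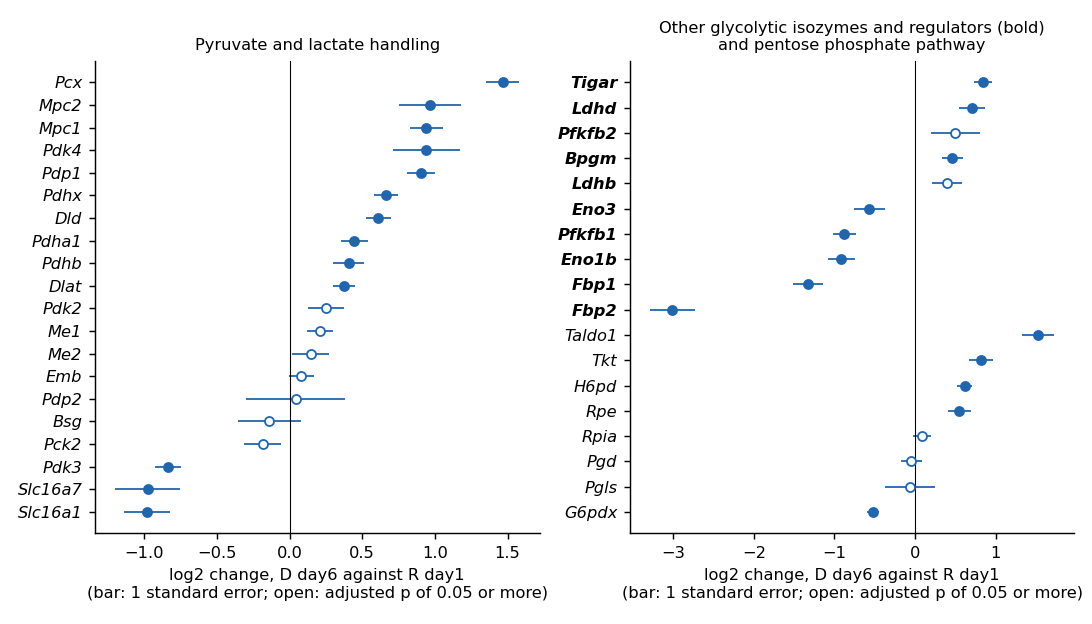
Log2 change in D day6 against R day1 of the genes of pyruvate and lactate handling (left), and of other glycolytic isozymes and regulators (bold names) and the pentose phosphate pathway (right); bars are 1 standard error and open points have an adjusted p of 0.05 or more. On the left, 10 of 20 genes lie filled above 0 with Pcx at 1.47, and on the right Fbp2 is lowest at -3.01.

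Other HIF targets that are not members were mixed. Of 43 such genes, 40 were tested, and 3 rose and 18 fell in D day1, with a median of -0.37. Of all genes tested, 15.4% rose and 15.2% fell there. When D day1 replicate 2 was left out, 4 rose and 25 fell, with a median of -0.46, where 26.6% of all genes rose and 26.2% fell. In D day6, 9 rose and 17 fell, with a median of -0.23, so that 22.5% rose, where 24.3% of all genes did, and 42.5% fell, where 26.2% did. Among the largest falls in D day6 were those of Nos2, inducible nitric oxide synthase (-4.19, adjusted p = 2.1e-05), Ppp1r3b (-3.03, adjusted p = 0.000665) and Ddit4, an inhibitor of mTORC1 signalling (-2.66, adjusted p = 1.57e-06). The largest increases were those of Tmem45a (3.56, adjusted p = 0.00408), Ppp1r3c (1.51, adjusted p = 0.00585), Tfrc, the transferrin receptor (1.47, adjusted p = 0.000259), and Plod2, a lysyl hydroxylase of collagen (1.47, adjusted p = 0.000288). The same shares of all genes stand beside the next counts, and in D day6 without D day1 replicate 2 they were 38% higher and 37.7% lower. Of 14 other oxygen-sensing genes, 3 rose and 1 fell in D day1 (6 and 2 without replicate 2), and 4 rose and 2 fell in D day6 (9 and 2 without that library). Vhl, which recognises the hydroxylated alpha subunit, was among those that fell (-0.39 (adjusted p = 0.0345) in D day1, -0.51 (adjusted p = 0.000247) without replicate 2, and -0.52 (adjusted p = 0.00558) in D day6), and Cited2, a competitor of HIF for its coactivator, rose in D day6 (1.24, adjusted p = 5.64e-06).

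The authors' deposited tables, which hold their own DESeq2 results against R day1, gave 21 of the 34 members with an adjusted p lower in D day1, where 13.4% of all genes with an adjusted p in the deposited table were lower and 13.5% higher. In D day6 the authors' deposited table gave 28 of 35 lower, where 32.9% of all genes were lower and 32.9% higher, and no member was higher in either. By these deposited tables, 11 of 13 HIF targets and 6 of 14 enzymes were lower in D day1, and 12 of 13 and 12 of 14 in D day6. In the authors' deposited table Epas1 (-0.20, adjusted p = 0.0166) and Arnt (-0.20, adjusted p = 9.91e-05) were lower in D day6, whereas neither passed in the edgeR test of all 9 libraries.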

How the data were processed

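Polyadenylated RNA of HC11 cells was sequenced in 9 libraries, 3 per group, and groups and replicate numbers were taken from the sample titles. Per the file headers, the authors deposited whole-number counts per gene made with featureCounts, not normalized, for 24421 genes, together with the summed exon length of each gene. The submitters' processing notes name, with no role given, DESeq2 1.16.1, Trimmomatic 0.32, HTSeq 0.6.1, TopHat2 2.0.6 and Bowtie2 2.0.2, and build mm10 (GRCm38). Strand setting and the handling of multiply mapped reads are not stated, so genes that overlap, and enzymes with near-identical pseudogenes, are uncertain. The authors' DESeq2 tables were deposited too, per the file headers, and hold a log2 fold change and an adjusted p-value per gene; they were used only where named. A further 21 columns of per-sample values match no sample label and were not used here.

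Counts were tested in R 4.3.3 with edgeR 4.0.16 (glmQLFit and glmQLFTest, TMM scaling, filterByExpr with a minimum count of 10), in 1 model over all 9 libraries with group as the only term. Benjamini-Hochberg adjustment ran over all 13866 genes tested, and adjusted p under 0.05 is a call. Standard errors were derived from the log2 change and its F statistic. All adjusted p-values in the text are edgeR's unless another tool is named. Library totals were 59621562 to 73571270 counts, and floors cover counting error only. In data simulated for D day1 against R day1, 160 of 197 changed genes among 13678 were recovered (81.2%), with 9 false calls. These rates belong to the simulated data. They need not hold for the real D day1 comparison, in which 2136 genes were called higher and 2106 lower and D day1 replicate 2 stood apart. Isozyme shares used CPM per kilobase of exon and the two-sided exact permutation test over libraries. Promoters came from a RefSeq table of GRCm38.p6. It held 32 of the members, and for the 10 with several promoters 1 was used, at the first exon base of the count table where it matched (26 of 32) and otherwise nearest to it.

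The members and gene lists were chosen with earlier results of these data known. All 35 members are named. Of other lists, the counts per direction are given and at most the 4 called genes with the largest change in each direction are named, besides 5 pyruvate dehydrogenase subunits chosen after their values were seen. Some genes of these lists are not reported here. Alternatives were other size factors, library totals, 2 other filters on low counts, DESeq2 1.42.0, a fit of the 6 libraries compared, a replicate block, and leaving out each library in turn.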

Additional observations from a re-analysis of the deposited data

Results flagged for a closer look

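The change against R day1 differed between D day1 and D day6 for 11 members, by edgeR's test of D day6 against D day1 itself (adjusted p under 0.05). The log2 difference, D day6 minus D day1, was -1.68 for Adm, -1.61 for Car9, -1.11 for Eno2, -1.0 for Aldoc, -0.98 for Ankrd37, -0.73 for Pgk1 and -0.40 for Pfkm. It was 0.85 for Pfkfb3, 0.82 for Car12, 0.69 for Epas1 and 0.42 for Pfkfb4. In the same test, 20.6% of the members tested fell and 11.8% rose, where 19.5% of all genes tested fell and 17.1% rose. The number of calls therefore does not set the members apart from other genes. Without D day1 replicate 2, the differences of these members were -1.45, -1.56, -0.93, -0.76, -0.68, -0.55 and -0.27 for the falls and 0.72, 0.61, 0.44 and 0.36 for the increases, in the same order.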

How the results depend on the processing

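Across the 13 alternatives of each comparison, the number of HIF targets that fell ranged from 11 to 12 of 13 in D day1 and from 11 to 13 in D day6, and that of glycolytic enzymes from 2 to 12 of 14 and from 9 to 12. With library totals in place of TMM, 8 enzymes fell in D day1, where 2328 of all genes fell. That scaling moved the median of all genes by -0.06 in D day1, -0.14 in D day6 and -0.07 between them, and the share of calls that were lower from 51.9% to 63.6% in D day6 and from 53.4% to 65.4% between D day1 and D day6. With DESeq2, 3 HIF targets rose from D day1 to D day6. In fits of only the 6 libraries compared, 1304 genes rose and 1451 fell in D day1, among them 2 enzymes that fell. In such fits 5232 genes rose in D day6, and 1544 rose and 1779 fell between D day1 and D day6.

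Leaving out 1 library at a time, the genes that rose in D day1 ranged from 1233 to 3745, those that fell from 1364 to 3688, and the enzymes that fell from 2 to 12. Between D day1 and D day6, 1615 to 4208 genes rose and 1790 to 3999 fell, 1 to 3 HIF targets rose and 2 to 5 fell, and 0 to 2 enzymes rose. The upper ends are the fits without D day1 replicate 2. There, 26.6% of all genes rose and 26.2% fell in D day1, and 29.9% rose and 28.4% fell between D day1 and D day6.

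Some log2 changes near 0 changed sign. Leaving out single libraries, these ranged in D day1 from -0.24 to 0.25 for Hif1a and from -0.16 to 0.21 for Pfkl. In D day6 the ranges were -0.02 to 0.05 for Hif1a, -0.20 to 0.00 for Pfkfb3, -0.11 to 0.07 for Pfkl and -0.13 to 0.06 for Pgam1. Between D day1 and D day6 they were -0.22 to 0.26 for Hif1a, -0.14 to 0.16 for Arnt, -0.14 to 0.14 for Kdm3a, -0.11 to 0.07 for Bnip3, -0.21 to 0.16 for Pfkl, -0.36 to 0.12 for Aldoa, -0.25 to 0.17 for Ldha and -0.39 to 0.29 for Slc16a3. With library totals, Hif1a was at -0.12 and Pfkfb4 at 0.00 in D day6, and Hif1a at -0.02, Arnt at -0.04 and Kdm3a at -0.05 between D day1 and D day6. In D day6, Pfkl was at 0.01 with RLE size factors, without a filter and with DESeq2, and Hif1a was at 0.00 with a minimum of 1 CPM. The cause was not tested. With all 9 libraries none of these was called. Without D day1 replicate 2, Hif1a passed in D day1 (adjusted p = 0.00365) and between D day1 and D day6 (0.00639), as did Arnt in the latter (0.0264). Library totals ended the calls of Epas1 and Pfkfb4 between D day1 and D day6 (adjusted p = 0.077 and 0.0812), and the fit of 6 libraries those of Epas1, Kdm3a, Aldoc, Gapdh and Pkm in D day1 (0.052 to 0.116).

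Whether the replicate numbers pair the samples is not stated. Same-numbered deviations correlated at -0.20 to 0.17 and other-numbered ones at -0.16 to 0.19. These correlations cannot decide the question, because deviations from a mean of 3 libraries depend on each other. With the replicate block, 1666 genes rose and 1794 fell in D day1, 3111 and 3404 in D day6, and 1998 and 2216 between D day1 and D day6, with 11 HIF targets falling in each comparison with R day1 and 4 and 11 enzymes. Depth limits only the rare members: Slc16a3 rests on 3 to 49 counts per library and Hif3a on at most 5.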
